A study of Mus musculus with 14 samples.

Results

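Leukocytes leave the blood through a sequence of adhesion steps, and the 9 genes described here encode receptors that carry it. Integrins are pairs of an alpha and a beta subunit that hold cells to ligands on endothelium and matrix. Selectin ligands, the hyaluronan receptor CD44 and the junction molecule PECAM-1 act beside them. In multiple sclerosis and its mouse model, experimental autoimmune encephalomyelitis, the integrin made of Itga4 and Itgb1 is known as the target of an antibody that blocks entry of leukocytes into the central nervous system.

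The 9 genes were chosen by symbol as leukocyte integrins and adhesion molecules, out of 19940 genes in the table. They were Itgam, Itgal, Itgax, Itgb2, Itga4, Itgb1, Selplg, Cd44 and Pecam1. Each symbol matched 1 row, and all 9 were among the 12096 genes that passed the filter on low values. The lowest value of any of them was 62.0 normalised counts, for Pecam1 in wt 6, so all 9 passed the minimum of 10 in every library of both genotypes.

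RNA was sequenced from monocyte-derived macrophages (MdMs) sorted from the central nervous system at the peak of disease, with 7 libraries from mCAT cells and 7 from wt cells. The mCAT cells carried CD45.2 and were heterozygous for CCR2creERT2/+, a Cre that tamoxifen activates and that the Ccr2 gene drives, and for mcat lsl/wt, a mitochondrial catalase held off by a stop cassette until Cre removes it. The wt cells carried CD45.1, and their titles name no Cre or catalase allele. Both kinds of cell developed in irradiated hosts, mixed chimeras given the 2 marrows at 50:50, and the labels give tamoxifen as the treatment of all 14 samples. The CD45 allele, the Cre and the catalase allele differ together between the groups and cannot be told apart. No source used here gives the ages of the mice or the number of hosts. The question named in the title is what targeting mitochondrial reactive oxygen species does to these macrophages.

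Values are called normalised counts: read counts scaled between libraries, recovered from the deposited log2 values by undoing the transformation they appear to have gone through. The libraries were sequenced to about 27.2 to 46.6 M reads for mCAT and 16.7 to 43.0 M for wt, a rough estimate. Genotypes were compared with limma over all genes tested, and p-values were adjusted by the Benjamini-Hochberg method over those 12096 genes, with 0.05 as the threshold. Library codes share a stem between 6 mCAT and 6 wt libraries. Partners of a stem resembled each other to differing degrees, least so mCAT 5 and wt 5 (correlation of deviations from genotype means 0.232). Results of a second model, which blocks on the stem, are therefore added and called the paired fit. Catalase itself (Cat) ranged from 1739 to 3933 normalised counts in mCAT libraries, with a median of 2739, and from 1042 to 2806 in wt libraries, with a median of 2303 (adjusted p = 0.878, limma). In the paired fit its log2 difference was 0.29 (unadjusted p = 0.00644, adjusted p = 0.390, limma). Cat was higher in mCAT in 6 of 6 pairs, as were 2.74% of all genes. Whether reads of the mcat allele enter this row was not tested. All 10 macrophage and monocyte markers checked passed the filter, among them Cd68, with medians of 70690.5 in mCAT and 63204 in wt libraries. Of these 10 markers 1 passed the test, in the paired fit only: Ccr2, the gene that carries the Cre in mCAT cells, ranged from 5327 to 14271 in mCAT and from 7578 to 22293 in wt libraries (log2 difference -0.80, adjusted p = 0.00587, limma). In bulk samples, fewer cells of a type and less RNA per cell cannot be told apart, nor, for Ccr2, can the Cre that its gene carries.

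None of the 9 adhesion genes passed the test between genotypes. The count was 0 of 9 in the fit without pairing, in which 0.198% of all genes tested passed (0.0827% as higher in mCAT), and 0 of 9 in the paired fit, in which 0.322% passed. At an unadjusted p below 0.05, 2 members (Itgam and Itgb1) were higher in mCAT without pairing, where 2.33% of all genes were, and 3 (Itgam, Itgal and Cd44) were higher with it, where 4.99% were; counting both directions, the shares of all genes were 5.37% without pairing and 9.23% with it. The estimated difference lay above 0 for all 9, against 49.7% of all genes, with a median log2 difference of 0.21 for the members and -0.00 for all genes tested; the signs of Itga4, Itgax and Pecam1 turned when certain libraries were left out, as given below. Members co-varied between libraries, so their shared sign is not 9 separate observations. The mCAT and wt ranges overlapped for 9 of 9 members; 0.24% of all genes had ranges that did not overlap.

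**Figure D1:**
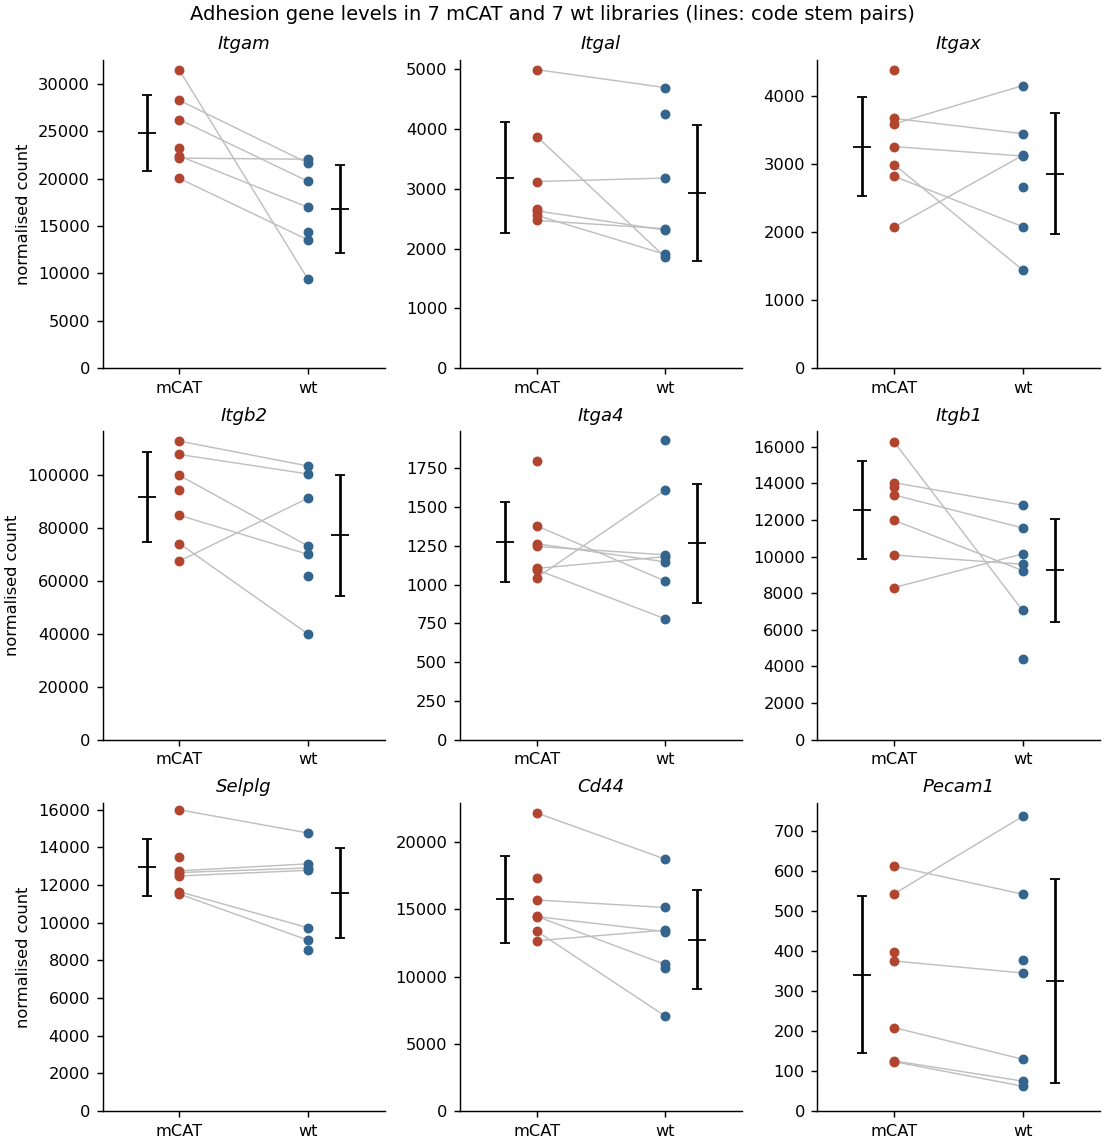
Normalised counts (vertical axes, starting at 0) of the 9 adhesion genes in each mCAT library (red, left) and wt library (blue, right); grey lines join libraries that share a code stem, and black bars show the mean ± SD of 7 libraries. Itgam values are 20003 to 31393 in mCAT and 9431 to 22036 in wt libraries, the least overlap of the 9 panels, while Pecam1 spreads widely within both genotypes.

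**Figure D2:**
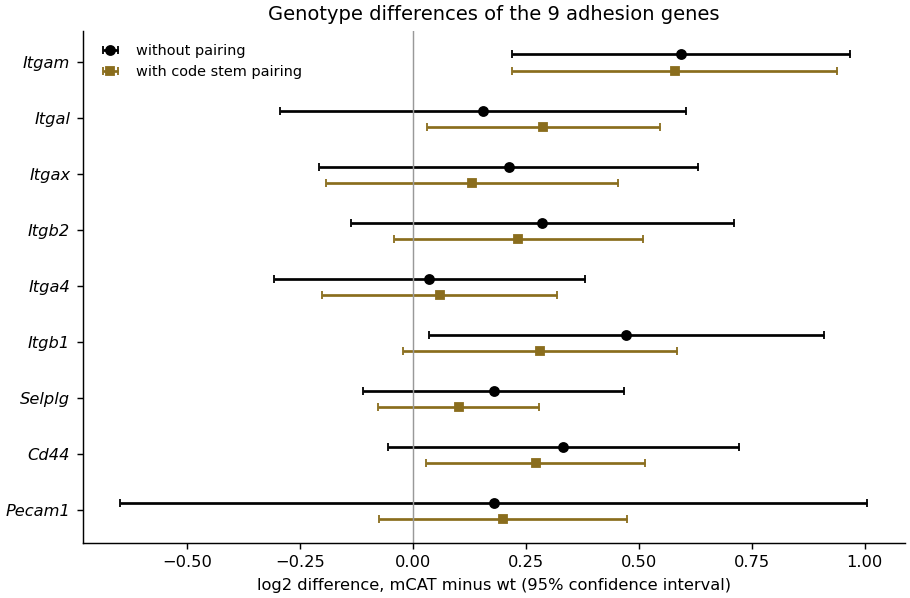
Log2 difference, mCAT minus wt, of each gene with its 95% confidence interval from the limma fit without pairing (black circles) and with code stem pairing (brown squares). All 9 estimates lie above 0, from 0.04 for Itga4 to 0.59 for Itgam, and no gene passed the adjusted test in either fit.

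Itgam encodes the alpha subunit CD11b, which with Itgb2 forms Mac-1, the complement receptor that binds fibrinogen, ICAM-1 and complement-coated particles. Itgam (ENSMUSG00000030786, chromosome 7) ranged from 20003 to 31393 normalised counts in mCAT libraries, with a median of 23187, and from 9431 to 22036 in wt libraries, with a median of 16979. Of the 7 mCAT libraries, 6 lay above the highest wt library, and 5 of the 7 wt libraries lay below the lowest mCAT library. The mean was 1.47-fold higher in mCAT, with a log2 difference of 0.59 (95% confidence interval 0.22 to 0.97). Its unadjusted p of 0.00381 ranked it at place 63 of all genes tested, and its adjusted p was 0.731 in limma. An exact permutation test of 7 against 7, 2-sided, gave an unadjusted p of 0.00350. It takes the libraries as exchangeable and does not use the stem pairing.

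The paired values of Itgam were higher in mCAT in 6 of 6 pairs, as were those of 2.74% of all genes. The size differed between pairs: mCAT 6 held 3.33-fold the count of wt 6, mCAT 5 held 1.01-fold that of wt 5 (22152 against 22036), and the other 4 pairs lay between 1.31-fold and 1.48-fold. The paired log2 difference was 0.58 (95% confidence interval 0.22 to 0.94, adjusted p = 0.338, limma). Without the pair of mCAT 6 and wt 6 it was 0.35 (adjusted p = 0.295), and without wt 6 alone the unpaired difference was 0.46 (adjusted p = 0.926). Within the libraries whose codes start with C1 the difference was 0.50 (4 against 4), and within those starting with C2 it was 0.71 (3 against 3). The labels do not say what C1 and C2 stand for. Between these code series 0 of 9 members differed at an adjusted p below 0.05, against 7.47% of all genes when libraries counted singly and 0.141% when stem partners were averaged (3 stems of C2 against 3 of C1). At an unadjusted p below 0.05, 2 of 9 differed between the averaged stems, against 16.2% of all genes. For 0 of 9 did the genotype difference depend on the series at an unadjusted p below 0.05, against 0.852% of all genes (limma).

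Itgax and Itgal encode the other alpha subunits of the leukocyte beta-2 family that passed the filter. Itgax (CD11c) is part of complement receptor CR4 and is widely used as a dendritic cell marker, although macrophages also express it. Itgal (CD11a) is part of LFA-1, the receptor for ICAM-1. In the RefSeq annotation of GRCm38 both lie on chromosome 7 with Itgam, and Itgax is the next protein-coding gene after Itgam, followed by Itgad. RefSeq (GRCm38.p6) held promoter windows for 5 of the 9 members; those of the neighbours Itgam and Itgax are shown because these paralogs share a beta subunit and a chromosomal position. Each is the 250 bases before 1 annotated start on the plus strand, with capitals marking GAGGAA or its reverse complement TTCCTC, a core bound by the myeloid factor PU.1, and TGANTCA, the AP-1 motif. Both motifs were chosen after the sequences were seen.
Itgam, chr7:128062390-128062639: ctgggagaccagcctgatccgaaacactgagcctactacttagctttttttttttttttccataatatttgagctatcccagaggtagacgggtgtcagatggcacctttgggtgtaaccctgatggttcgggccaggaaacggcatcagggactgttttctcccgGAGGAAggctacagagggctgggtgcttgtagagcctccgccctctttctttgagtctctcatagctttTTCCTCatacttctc
Itgax, chr7:128129300-128129549: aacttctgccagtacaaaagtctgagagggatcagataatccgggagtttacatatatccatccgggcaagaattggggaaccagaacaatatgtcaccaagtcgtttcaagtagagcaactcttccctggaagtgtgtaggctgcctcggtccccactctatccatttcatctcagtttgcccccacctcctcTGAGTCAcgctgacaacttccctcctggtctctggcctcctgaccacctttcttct
The Itgam window held 2 matches to the PU.1 core and 0 to the AP-1 motif, and the Itgax window 0 and 1. The 2 motifs do not overlap in these windows. In the other member windows, not shown, the counts of PU.1 core and AP-1 motif were 2 and 0 for Cd44, 1 and 0 for Itgb1, and 0 and 0 for Itga4. Of 32851 promoter windows of this length, 23.3% held the PU.1 core and 6.75% the AP-1 motif on either strand.

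Itgax (ENSMUSG00000030789) ranged from 2072 to 4374 normalised counts in mCAT libraries, with a median of 3250.5, and from 1441 to 4145 in wt libraries, with a median of 3112. The groups overlapped almost entirely. Its log2 difference was 0.21 (95% confidence interval -0.21 to 0.63, adjusted p = 0.893, limma). It was higher in mCAT in 4 of 6 pairs, by 2.07-fold in mCAT 6 over wt 6, and lowest at 0.664 of the partner in mCAT 5. The paired estimate was 0.13, and -0.04 without the pair of mCAT 6 and wt 6. Without wt 6 the unpaired difference was 0.07.

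Itgal (ENSMUSG00000030830) ranged from 2469.7 to 4992 normalised counts in mCAT libraries, with a median of 2667, and from 1858 to 4693 in wt libraries, with a median of 2333. Its high values lay in both genotypes, in mCAT 7 and mCAT 6 and in wt 7 and wt 1, so the ranges overlapped. The log2 difference was 0.16 (95% confidence interval -0.29 to 0.60, adjusted p = 0.926, limma). In the paired fit it was 0.29 (95% confidence interval 0.03 to 0.55, unadjusted p = 0.0305, adjusted p = 0.503), and 0.14 without the pair of mCAT 6 and wt 6 (unadjusted p = 0.118). The unpaired difference ran from 0.04 without mCAT 7 to 0.28 without wt 7; it was below 0.11 also without mCAT 6, wt 3 or wt 6, was 0.255 without wt 1, and was 0.00 within C1. It was higher in mCAT in 5 of 6 pairs, at 2.08-fold in mCAT 6 over wt 6 and between 0.982-fold and 1.34-fold in the other 5. Lymphocytes also carry Itgal, and the summed level of 9 measured T cell markers was 181 to 396 normalised counts in mCAT libraries, against 266 to 810 in wt libraries, lower in mCAT in 6 of 6 pairs. None of the 8 T cell markers tested passed, Cd8a being below the filter. At an unadjusted p below 0.05 without pairing, Cd3g, Lck, Cd2, Cd3d and Cd3e were lower in mCAT (p from 0.000774 to 0.0262, limma). Cd247, Cd4 and Cd5 were not below that threshold. Of all genes, 5.37% were, in either direction. The part of T cell RNA in the Itgal values was not tested.

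Itgb2 encodes CD18, the beta subunit shared by Itgam, Itgal and Itgax, and was the most abundant of the 9. It (ENSMUSG00000000290, chromosome 10) ranged from 67391 to 112625 normalised counts in mCAT libraries, with a median of 94122, and from 39903 to 103254 in wt libraries, with a median of 73103. The lowest library was wt 6, and the other 13 libraries lay between 61822 and 112625. The log2 difference was 0.29 (95% confidence interval -0.14 to 0.71, adjusted p = 0.878, limma). Of 6 pairs 5 were higher in mCAT, while mCAT 5 held 0.740 of the count of wt 5. Without wt 6 the unpaired difference was 0.14, and the paired one, 0.23 with all pairs, was 0.10 without mCAT 6 and wt 6 and 0.37 without mCAT 5 and wt 5.

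Ratios between subunits within a library do not depend on how libraries were scaled. The Itgam to Itgb2 ratio of normalised counts averaged 0.281 ± 0.0792 in mCAT libraries and 0.223 ± 0.0379 in wt libraries (SD, n = 7 each). It was higher in mCAT in 6 of 6 pairs, with overlapping ranges of 0.201 to 0.424 in mCAT and 0.169 to 0.282 in wt. The Itgam to Itgal ratio averaged 8.13 ± 1.86 in mCAT and 6.19 ± 2.05 in wt libraries, and the Itgam to Itgax ratio averaged 7.93 ± 1.98 in mCAT and 6.01 ± 0.810 in wt libraries. Both were higher in mCAT in 6 of 6 pairs. The Itgal to Itgb2 ratio was higher in mCAT in 3 of 6 pairs and the Itgax to Itgb2 ratio in 1 of 6. Itgam is the numerator of each ratio that was higher in 6 of 6 pairs, as Itgam itself was, so these are not separate results. The ratios are descriptions and were not tested.

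**Figure D3:**
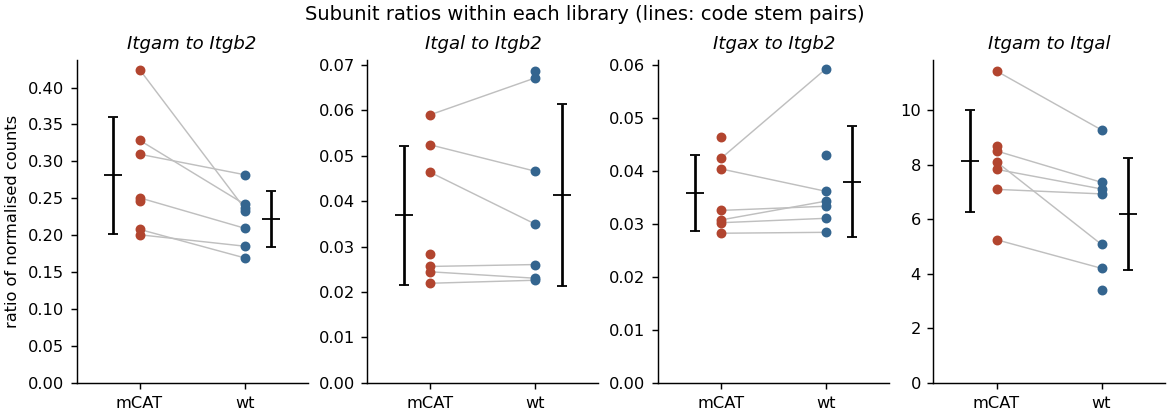
Ratio of normalised counts (vertical axes, starting at 0) of 2 subunit genes within each mCAT (red, left) and wt (blue, right) library; grey lines join code stem partners and black bars show the mean ± SD of 7 libraries. The Itgam to Itgb2 and Itgam to Itgal lines run downwards to wt in 6 of 6 pairs, those of Itgal to Itgb2 in 3 of 6 and those of Itgax to Itgb2 in 1 of 6.

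Itga4 and Itgb1 encode the subunits of VLA-4, the receptor for VCAM-1 and fibronectin. Itga4 (ENSMUSG00000027009, chromosome 2) ranged from 1045 to 1796 normalised counts in mCAT libraries, with a median of 1246, and from 779 to 1930.2 in wt libraries, with a median of 1180.5. The wt range enclosed the mCAT range. Its log2 difference was 0.04 (95% confidence interval -0.31 to 0.38, adjusted p = 0.982, limma). The highest value was in wt 1 and the lowest in wt 4, and 4 of 6 pairs were higher in mCAT. Without mCAT 3 the difference was -0.04, without wt 4 it was -0.06 and without wt 5 it was -0.00.

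Itgb1 encodes CD29, which pairs with many alpha subunits. It (ENSMUSG00000025809, chromosome 8) ranged from 8307 to 16240 normalised counts in mCAT libraries, with a median of 13360.0, and from 4393 to 12805 in wt libraries, with a median of 9579. Of the 7 mCAT libraries, 4 lay above every wt library, and 2 wt libraries, wt 1 and wt 6, lay below every mCAT library. The log2 difference was 0.47 (95% confidence interval 0.04 to 0.91, unadjusted p = 0.0355, adjusted p = 0.878, limma). An exact permutation test of 7 against 7, which also leaves out the stem pairing, gave an unadjusted p of 0.0536. The paired fit, to which wt 1 adds nothing for want of a partner, gave 0.28 (adjusted p = 0.564), and without the pair of mCAT 6 and wt 6 it was 0.10. The unpaired difference without wt 1 was 0.31.

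Selplg encodes PSGL-1, the ligand through which leukocytes roll on P-selectin. It (ENSMUSG00000048163, chromosome 5) ranged from 11518 to 15992 normalised counts in mCAT libraries, with a median of 12662, and from 8569 to 14766 in wt libraries, with a median of 12779.9. It was the steadiest of the 9 between libraries, with the highest library at 1.87-fold the lowest and partners of a stem at a median of 1.06-fold of each other. The log2 difference was 0.18 (95% confidence interval -0.11 to 0.47, adjusted p = 0.878, limma), and 3 of 6 pairs were higher in mCAT. Without wt 1 the difference was 0.11.

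Cd44 encodes the receptor for hyaluronan and osteopontin. It (ENSMUSG00000005087, chromosome 2) ranged from 12673 to 22182 normalised counts in mCAT libraries, with a median of 14481, and from 7065 to 18749 in wt libraries, with a median of 13354. The highest mCAT and the highest wt library, mCAT 4 and wt 4, were partners of 1 stem. Its log2 difference was 0.33 (95% confidence interval -0.05 to 0.72, adjusted p = 0.878, limma). In the paired fit it was 0.27 (95% confidence interval 0.03 to 0.51, unadjusted p = 0.0301, adjusted p = 0.503), and 5 of 6 pairs were higher in mCAT. Without the pair of mCAT 6 and wt 6 the paired difference was 0.145 (unadjusted p = 0.116), and without wt 6 the unpaired one was 0.20.

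Pecam1 encodes CD31, an adhesion molecule of endothelial junctions, platelets and many leukocytes whose cytoplasmic tail recruits phosphatases. It (ENSMUSG00000020717, chromosome 11) ranged from 123 to 613 normalised counts in mCAT libraries, with a median of 376, and from 62.0 to 738 in wt libraries, with a median of 346. It varied most of the 9, with the highest library, wt 4, at 11.9-fold the lowest, wt 6, and values were widely spread in both genotypes. Partners of a stem stayed within 1.98-fold of each other, whereas the geometric means of the 6 pairs spanned 7.25-fold. The log2 difference between genotypes was 0.18 (95% confidence interval -0.65 to 1.01, adjusted p = 0.959, limma) and 0.20 in the paired fit (95% confidence interval -0.07 to 0.47, adjusted p = 0.633). Over libraries left out, the unpaired difference ran from -0.02 without wt 6 to 0.38 without wt 4.

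The genes whose values followed Pecam1 most closely were Usp18 (Pearson r = 0.958), Trim30c (r = 0.954) and Phf11b (r = 0.953), over the 14 libraries on the deposited log2 scale. Usp18, a protease that removes ISG15 and restrains interferon receptor signalling, is a well known interferon-induced gene. After the genotype means were subtracted, r was 0.970, 0.960 and 0.969 in that order. Usp18 ranged from 2533 to 9591 normalised counts in mCAT libraries and from 2639 to 10439 in wt libraries. In both genotypes its lowest values were in libraries 6 and 7, as were those of Pecam1. Of the 9 endothelial markers checked, 6 were tested and none passed, and their summed level was 1610 to 3258 normalised counts in mCAT and 1238 to 4311 in wt libraries. Flt1 made up most of that sum, with a median of 1988 over the 14 libraries, and had r = 0.652 with Pecam1. Its level was far above those of the other markers of the list, and which cells its RNA came from was not tested. The r of the other 5 tested was 0.511 for Egfl7, 0.438 for Kdr, 0.355 for Slco1a4, 0.278 for Cldn5 and 0.152 for Emcn. The part of endothelial RNA in the Pecam1 values was not tested. The markers below the filter were Cdh5, Tek and Tie1, with medians of 2.77, 3.81 and 7.22 normalised counts over all 14 libraries. Cdh5 and Tek were each at 0 in 4 libraries and Tie1 in 1. These correlations describe 14 libraries, of which 12 are paired by stem, and share the scaling and depth of those libraries. Usp18, Trim30c and Phf11b were picked for the highest r of all genes tested, whereas the endothelial markers were a fixed list. The r values of the picked genes are therefore high by selection and cannot be weighed against those of the markers.

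**Figure D4:**
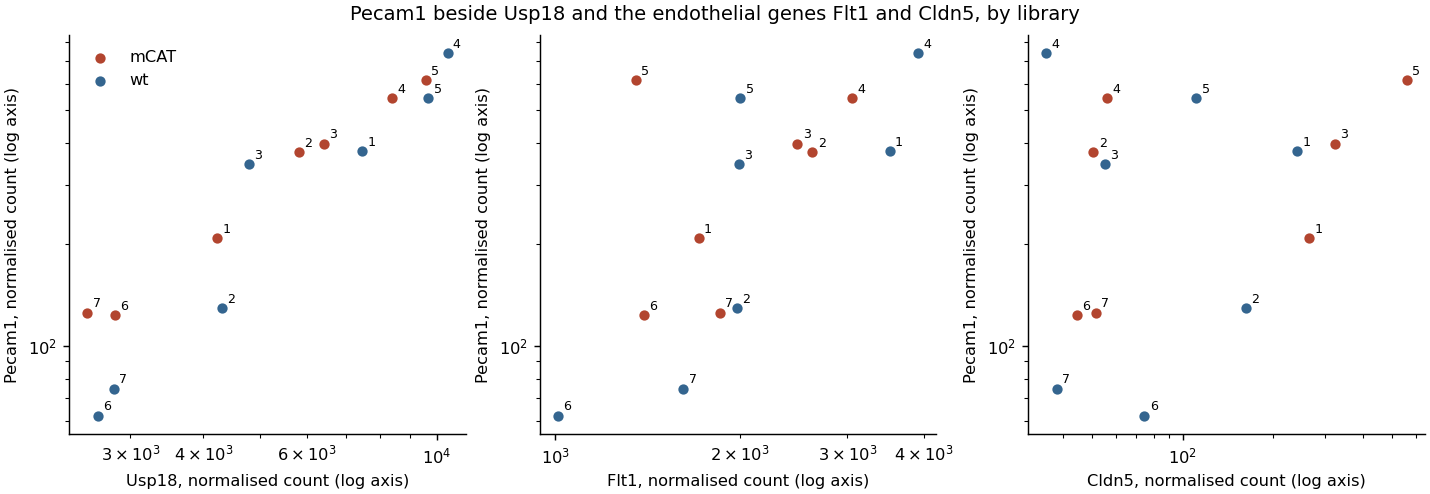
Pecam1 against Usp18 (left) and against Flt1 (middle) and Cldn5 (right), both from the list of endothelial markers, as normalised counts on log axes, with 1 point per library (red mCAT, blue wt) labelled by its number. Pecam1 and Usp18 run together over both genotypes (r = 0.958), Usp18 being picked for the highest r of all genes tested. In the fixed list of endothelial markers, r is 0.652 for Flt1, the highest of the 6 tested, and 0.278 for Cldn5, the fifth. The 2 kinds of r cannot be weighed against each other.

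The other members had different companions by the same measure. Itgb2 ran closest with Tapbp (r = 0.957), Tmem63a (0.936) and Immt (0.935), and Itgb1 with Zdhhc13 (r = 0.958), Mfsd14b (0.954) and Serinc1 (0.949). Cd44 followed the cytoskeletal genes Actg1 (r = 0.933) and Actr2 (0.912) and then Sppl2a (0.892), and Selplg followed Sptlc2 (0.925), Sh3bgrl3 (0.922) and Pla2g7 (0.917). The r of Itgam was lower, at 0.878 with Ttc17, 0.872 with Nfe2l1 and 0.863 with Sptlc1, and fell to 0.761, 0.806 and 0.789 once genotype means were subtracted. Itgal was most like Arhgap23 (r = 0.862), Pdzd8 (0.836) and Ptprc (0.835), Itgax most like Gpr108 (0.872), Cfb (0.829) and Rdh11 (0.819), and Itga4 most like Cep192 (0.860), Rlim (0.860) and Prrc2c (0.854).

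Among the members themselves, Itgb2 and Cd44 varied together most (r = 0.866 over 14 libraries), followed by Itgb2 and Selplg (0.776) and Itgam and Itgb1 (0.737). Of the 3 alpha subunits that use Itgb2, Itgax (r = 0.727) and Itgam (r = 0.672) varied with it and Itgal did not (r = -0.0403). Itga4 and its partner Itgb1 ran at r = -0.327, a value to which wt 1 contributed the highest Itga4 and the lowest Itgb1. Library wt 6 held the lowest value of 6 of the 9 members and wt 1 of 2. For 8 of the 9 members the largest mCAT over wt fold within a pair was that of mCAT 6 over wt 6. The shares of all genes with these patterns are not given, so these counts cannot be read as particular to the members.

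Per kilobase of transcript, the median levels of the 9 members ran from 109.8 normalised counts for Pecam1 to 29573 for Itgb2. Lengths were those of the principal coding transcript in GENCODE M21. Itgb2 stood first at 30783 ± 5693 normalised counts per kb in mCAT and 25940.3 ± 7652 in wt libraries (SD, n = 7 each), and lay above Selplg, the next, in 14 of 14 libraries without overlap. Then came Selplg, Itgam, Itgb1 and Cd44, whose neighbouring ranges overlapped. Itgam averaged 5333 ± 859 per kb in mCAT and 3618 ± 1001 in wt libraries. Itgax at 803 ± 180 in mCAT and 706 ± 221 in wt libraries and Itgal at 613 ± 180 in mCAT and 564 ± 220 in wt libraries overlapped, both below Cd44 in every library. Itga4 at 131 ± 26.3 in mCAT and 129.6 ± 39.3 in wt libraries lay below Itgal in 14 of 14 libraries, and Pecam1 was last at 104 ± 59.8 in mCAT and 98.8 ± 77.8 in wt libraries, overlapping Itga4.

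**Figure D5:**
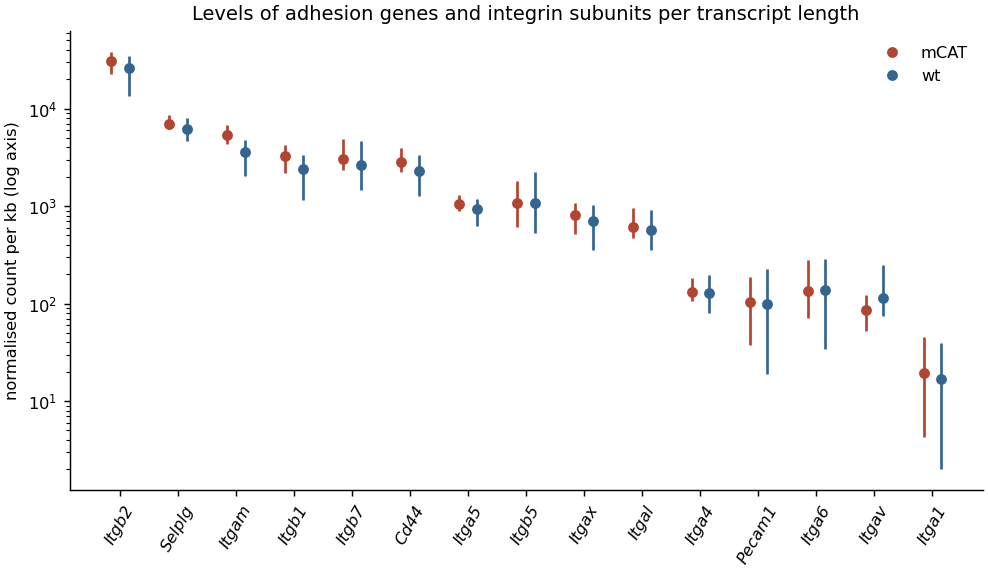
Normalised counts per kb of transcript (vertical log axis) of 15 genes, the 9 members and the other tested integrin subunits with an mCAT mean above 10 per kb; points are means and lines run from the lowest to the highest of 7 mCAT (red, left) or 7 wt (blue, right) libraries. Itgb2 stands above every other gene, and mCAT and wt lines overlap for each gene.

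The integrin repertoire of these macrophages beyond the members was led by Itgb7, Itga5 and Itgb5. Of 27 integrin subunit genes in the table, 16 were tested, including the 6 members, and 11 lay below the filter. Itgb7, the partner of Itga4 in the gut-homing integrin, averaged 3014 ± 906 normalised counts per kb in mCAT and 2644 ± 1115 in wt libraries, close to Itgb1 on that scale. Itga5, the fibronectin receptor subunit that pairs with Itgb1, averaged 4590.1 ± 570 normalised counts in mCAT and 4048 ± 934 in wt libraries (log2 difference 0.20, adjusted p = 0.878, limma). Itgav averaged 607 ± 183 in mCAT and 808 ± 452 in wt libraries (log2 difference -0.28, adjusted p = 0.885). Itgb4 was near the filter, at 12.7 ± 7.0 in mCAT and 11.7 ± 9.75 in wt libraries. Below the filter were Itga2, Itga3, Itga7, Itga8, Itga10, Itga11, Itgad, Itgb2l, Itgb3, Itgb6 and Itgb8. Itgad, the remaining alpha subunit of the beta-2 family, was at 0 in 9 of 14 libraries and reached 6.59 normalised counts at most, in wt 4.

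Of 105 other adhesion genes tested in 7 lists, 0 were called in either fit (limma, smallest adjusted p 0.878 without pairing and 0.347 with it). At an unadjusted p below 0.05, 5 differed without pairing, 4 higher and 1 lower in mCAT, which is 4.76% of the 105. The share among all genes in that fit was 5.37%. With pairing 15 of the 105 were higher and 1 was lower, where 4.99% of all genes were higher and 9.23% differed in either direction. The median log2 difference of the 105 was 0.10, and 69.5% lay above 0, against 49.7% of all genes. The 105 genes were measured in the same libraries, and how far they co-varied was not tested. Neither the 15 nor the share above 0 can therefore be read as separate observations, or as a broad rise of adhesion genes. How the unadjusted counts change when a pair is left out was not tested. The lists were integrin alpha (7 tested) and beta subunits (3) beyond the members, integrin activation and adaptor genes (33), selectins and selectin ligand modification (15), integrin ligands and immunoglobulin-type molecules (17), CD44 partners, linkers and shedding (19), and inhibitory receptors and phosphatases of the Pecam1 type (11, Lilrb4a having 2 rows). Their median log2 differences were 0.10, 0.07, 0.07, 0.13, 0.10, 0.16 and 0.08.

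None of the genes that turn integrins on or off passed the test. Itgb1bp1, whose product ICAP-1 binds the Itgb1 tail and limits its activation, averaged 1562 ± 160 normalised counts in mCAT and 1936 ± 216 in wt libraries and was lower in 5 of 6 pairs (log2 difference -0.29, unadjusted p = 0.00970, adjusted p = 0.878, limma). Pxn, the focal adhesion adaptor paxillin, averaged 1662 ± 260 in mCAT and 1367 ± 208 in wt libraries (log2 difference 0.26, adjusted p = 0.878). Among genes that modify selectin ligands, the sialyltransferase gene St3gal4 averaged 2526 ± 259 in mCAT and 2070.0 ± 279.5 in wt libraries (log2 difference 0.28, unadjusted p = 0.0173, adjusted p = 0.878). The galactosyltransferase gene B4galt1 averaged 10352 ± 1034 in mCAT and 8701 ± 1939 in wt libraries (adjusted p = 0.878). Of the selectins, Sele lay below the filter and reached 9.07 normalised counts at most.

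Among CD44 partners and shedding enzymes, the smallest p-values were those of 2 membrane proteases that cut CD44 or other surface receptors. Mmp14 averaged 11412 ± 2467 normalised counts in mCAT and 7950.2 ± 2515 in wt libraries and was higher in 6 of 6 pairs (log2 difference 0.54, unadjusted p = 0.0118, adjusted p = 0.878, limma). Adam17, a sheddase of many surface proteins, averaged 9028 ± 2722 in mCAT and 6706 ± 1922 in wt libraries (log2 difference 0.42, adjusted p = 0.878). Sirpa, the inhibitory receptor for CD47, averaged 28362 ± 6875 in mCAT and 20639 ± 4442 in wt libraries and was higher in 6 of 6 pairs (log2 difference 0.46, unadjusted p = 0.0197, adjusted p = 0.878). Pirb, another inhibitory receptor, averaged 33633 ± 7848 in mCAT and 27961 ± 5973 in wt libraries (adjusted p = 0.878). Of the ligands, the endothelial molecules Esam and Jam2 had the smallest p-values in the fit without pairing, with Esam at 56.6 ± 57.0 in mCAT and 21.1 ± 14.8 in wt libraries (adjusted p = 0.878, limma). Jam2 averaged 10.9 ± 10.1 in mCAT and 15.5 ± 10.3 in wt libraries (adjusted p = 0.894). With pairing the smallest p of that list was that of Vwf, the von Willebrand factor gene (unadjusted p = 0.0469, adjusted p = 0.533). The ligand genes Icam4, Jam3 and Madcam1 lay below the filter.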

How the data were processed

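RNA of sorted MdMs was sequenced with Smart-seq2 libraries, which carry no strand information, per the labels' protocols. The submitters' processing notes name FastQC, fastp, Salmon and GRCm39; no source used here gives versions, annotation or filters. The deposited values are log2 values with 1 lowest value shared by 14 libraries, in the form of a variance-stabilising transformation, although the table is titled as raw counts. With X as 2 to the power of a value and F that of the lowest, the normalised count was (X - F) squared over X. Depth, estimated from the size of the lowest counts, is rough and covers counting error only. Genes with a normalised count of at least 10 in at least 7 libraries were tested with limma 3.58.1 in R 4.3.3 (statmod 1.5.0, trend and robust moderation), 2-sided, and checked on simulated data. Each difference is mCAT less wt in the deposited log2 unit, in which low genes change less than in counts.

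The labels do not say which libraries share a host. Deviations from genotype means correlated between partners of all 6 code stems (0.232 to 0.659), so the stem was taken to pair libraries. The lowest, 0.232 for stem C2_1, lay below the 0.252 of mCAT 3 and wt 3, which share no stem. Libraries wt 1 and mCAT 3 have no partner. P-values measure the spread between these libraries, which may be technical in part. Named are all 9 members, the 2 genes of smallest p in each list beyond them, integrin subunits, selectins and ligands below the filter, and the 3 genes most like each member by Pearson r. Members and lists were chosen with earlier results of these data known. Overlapping genes were looked up in GENCODE M21, in which Itga4 overlaps Cerkl on the other strand, whose reads cannot be told apart without strand, and Itgam overlaps the model Gm49368, which has no row in the table. An item withheld for evaluation is not reported here. The alternatives were other pairings, code series, filters, scalings, scales and variance models, and leaving out libraries.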

Additional observations from a re-analysis of the deposited data

How the results depend on the processing

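The count of members called and that of other adhesion genes called stayed at 0 in all 31 alternatives run (pairing, code series, filter, scaling, scale, variance model and each library or stem left out). Itgam, Itgal, Itgb2, Itgb1, Selplg and Cd44 kept their sign in each. Over all genes, 24 were called without pairing, 39 with the replicate block by code stem, 25 with the block by title number, 15 within C1 and 9 within C2, and 18 to 25 without 1 library. With the replicate block and 1 stem left out (chosen after seeing the data), 28 to 37 were called, the 37 without stem C2_1. The paired fit changed no call of a member. Between code series 903 genes were called with libraries counted singly and 17 with stem partners averaged (chosen after seeing the data), where fewer values entered. Reversed estimates, none called, were those of Itga4 at -0.0798 within C1, from -0.0599 (without wt 4) to 0.139 over libraries left out, below 0 also without mCAT 3 and without wt 5, and with the block at -0.0161 without stem C1_5 and -0.00722 without C2_1. Pecam1 turned to -0.0160 without wt 6 (range -0.0160 to 0.383), and Itgax to -0.0404 with the block and without stem C2_2. The cause was not tested. Itgam ran from 0.35 to 0.71, with a smallest adjusted p of 0.194 (block without stem C2_1). Title numbers 1 to 3 join other libraries than the stems, with correlations of -0.294, 0.158 and 0.252. Depth limits what can be said of genes near 10 normalised counts, such as Itgb4 and Jam2.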

Other observations

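Some of the other adhesion genes stood apart between the 2 library code series, but those calls depended on how libraries were counted. With genotype in the fit and each library counted singly, 6 of C2 against 8 of C1, 903 of 12096 genes (7.47%) differed at an adjusted p below 0.05 in limma, as did 16 of the 105 other adhesion genes tested (7 higher and 9 lower in C2). Partners of a stem always fall in 1 series and resemble each other, so these p-values are too small. With partners averaged, 3 stems against 3 (chosen after seeing the data), 17 genes (0.141%) and 0 of the 105 passed, and 23 of the 105 had an unadjusted p below 0.05, against 16.2% of all genes.

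The genes named here were singled out after their values were seen. Selp, the gene of P-selectin, had its lowest values in 4 of the C2 libraries, at 17.4 normalised counts in mCAT 6, 90.0 in mCAT 7, 27.9 in wt 6 and 29.0 in wt 7. Over averaged stems its C2 minus C1 log2 difference was -1.27 (adjusted p = 0.213, limma). The vitronectin receptor subunit gene Itgb5 had its highest values in mCAT 7, at 5966, and wt 7, at 7391, with a difference of 1.15 over averaged stems (adjusted p = 0.0692). The same difference was 1.27 for the laminin receptor subunit gene Itga6 (adjusted p = 0.117) and 1.14 for the VLA-4 ligand gene Vcam1 (adjusted p = 0.270). None of these 4 genes passed the test between genotypes, with adjusted p from 0.940 to 0.986. The labels leave the code series unexplained, and hosts, batches and disease course cannot be told apart within them.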
